A study of Mus musculus with 8 samples.

Results

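The proteasome is the particle that degrades proteins tagged with ubiquitin. The genes of its subunits and dedicated assembly chaperones are described here in wild-type and HDAC3-deficient hearts. Members were all genes whose symbol begins with Psma, Psmb, Psmc, Psmd or Psmg followed by a digit, leaving out the immunoproteasome genes Psmb8, Psmb9 and Psmb10. There were 41 such genes among 19933 genes with a transcript cluster (a gene-level probe set) of their own. Of these 41, 16 encode subunits of the 20S core, 17 encode subunits of the 19S cap, 7 encode assembly chaperones, and 1, Psmc3ip, matches by its symbol but encodes a meiotic recombination factor and no subunit.

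Heart RNA of 6-week-old males of the C57BL/6 strain, fed normal chow, was measured on Affymetrix Mouse Gene 1.0 ST arrays. There were 4 wild-type (WT) and 4 HDAC3-deficient hearts (KO, called MCH3-KO in the design), each titled a biological replicate. HDAC3 is a histone deacetylase of the nuclear receptor corepressor complexes. The labels used here do not name the cells in which the gene was removed or the Cre line, and give no agent or second allele for either group.

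In the ubiquitin-proteasome system, substrates marked with ubiquitin chains are bound, unfolded and threaded by the 19S cap into the 20S core. The core is a barrel whose outer alpha rings form a gated entrance and whose inner beta rings carry the proteolytic sites. Chaperones bring the rings and the base of the cap together and leave before the particle is mature. When proteasome activity is low, the transcription factor NFE2L1 induces subunit genes together. In heart muscle the system turns over sarcomere proteins and damaged proteins.

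The targeted gene, Hdac3, had a mean log2 intensity of 10.10 ± 0.08 (SD, n = 4) in the WT group. It was 8.57 ± 0.05 in the KO group, or 34.45% of the WT level, and every array matched its label. Differences below subtract the WT from the KO mean of log2 intensity and were tested with limma and adjusted by the Benjamini-Hochberg method over the 14950 genes above a filter on low levels (log2 4.50), with a threshold of 0.05. By this rule 3683 genes changed, or 24.6% of all tested, of which 10.8% of all were higher and 13.9% lower. The array medians lay between 54.1 and 56.5 intensity units, and no pair of arrays was identical. Of 10 cardiomyocyte markers all were above the filter, 3 fell and 0 rose (30%, against 24.6% of all genes). Of 9 fibroblast markers 3 rose and 0 fell (33.3%). Above the filter, 1 of 5 lymphocyte markers rose (20%) and 1 of 2 erythroid markers fell (50%). Of 6 skeletal muscle markers above it, 1 rose and 1 fell (33.3%). Of 9 endothelial and 5 smooth muscle markers 0 passed. In the same hearts 15 of 15 macrophage markers rose, with a list mean relative to WT of -0.12 to 0.09 in WT and 1.07 to 1.34 in KO hearts. The part of these cell types in the results below was not tested. In whole hearts, fewer cells of a type and less RNA per cell cannot be told apart.

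Most proteasome genes differed little from WT, as did most of all genes tested. Of the 40 subunits and chaperones, 38 were above the filter, and 7 changed (18.4%, against 24.6% of all genes): Psma6 rose, and Psma4, Psmb2, Psmb5, Psmd2, Psmd5 and Psmg2 fell. An unadjusted p under 0.05 was found for 16 of the 38, a larger share than the 35.9% of all genes. None of the 38 passed with a change of at least 1.5-fold, against 4.08% of all genes, and the differences ran from -0.34 to 0.31. Their median was -0.03, against -0.01 over all genes, and their median size regardless of sign was 0.09, against 0.11. This median size was 0.03 in the cap, 0.11 in the core and 0.17 among the chaperones. The groups did not overlap for 13 of the 38 members, a larger share than the 28.6% of all genes. The measurements were tight, with a median standard error of 0.05, against 0.07 over all genes.

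**Figure D1:**
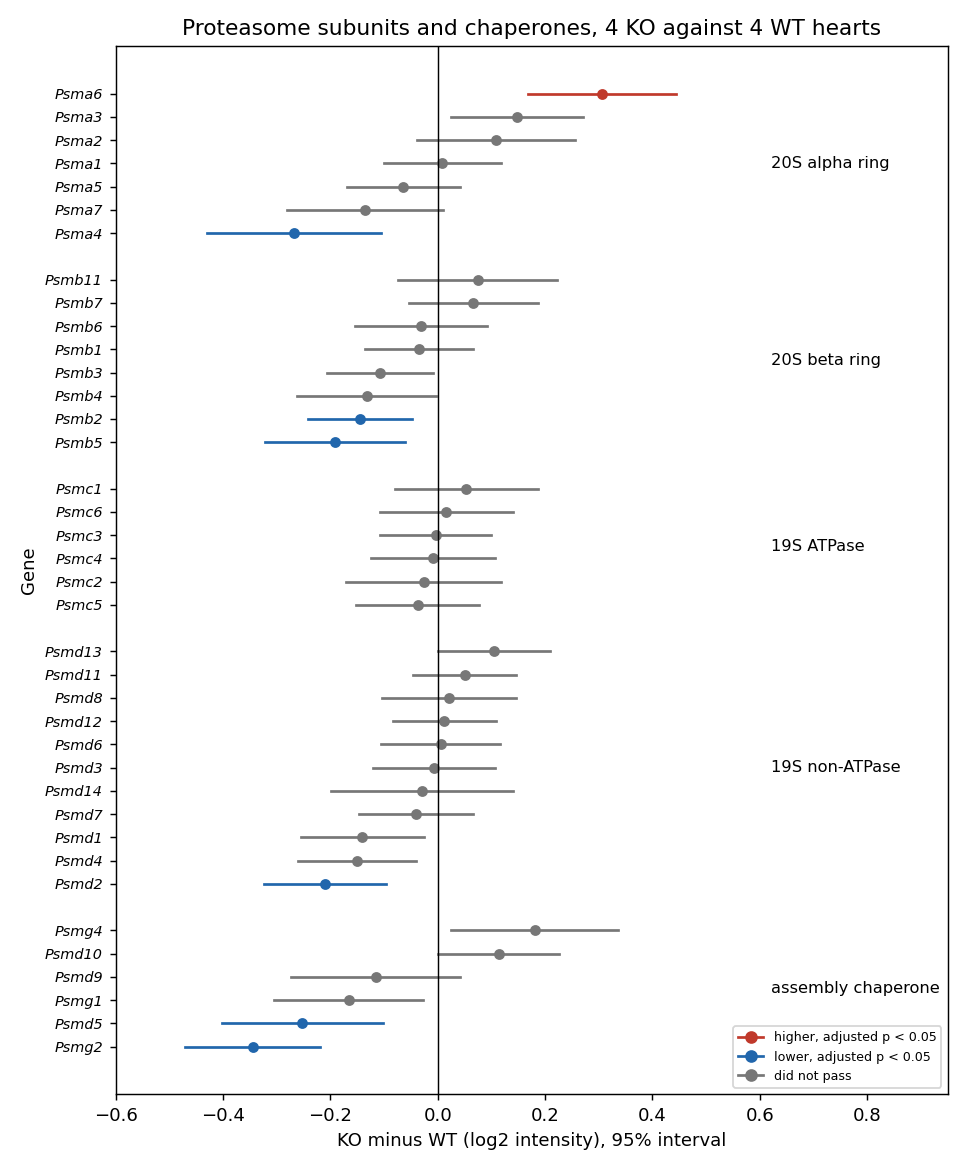
KO minus WT difference of each subunit and chaperone above the filter (x axis, log2 intensity, with its 95% interval from limma, 4 arrays per group), ordered by role. Most points sit near 0. Psma6 lies highest at 0.31 and Psmg2 lowest at -0.34.

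Sequences before the start sites of 4 core genes are shown. They are the core members that went furthest apart and a pair of beta genes chosen for a motif named below. Psma4 and Psma6 are the alpha subunit genes that fell and rose. A promoter window was found for 12 of the 16 core genes. Among these, the windows of Psmb5 and Psmb6 hold TGACNNNGC, the core of the antioxidant response element bound by NFE2L1 and NFE2L2. Only Psmb5 of this pair fell. Each line gives 150 bases before a start site of RefSeq (GRCm38.p6), 5′ to 3′ on the gene's strand. Capitals mark TGACNNNGC or CCAAT, the box bound by NF-Y, on either strand. Psma6 has a pair of start sites in the table. The printed stretches lie at chr9:54950709-54950858 (plus strand) for Psma4, chr12:55384072-55384221 and chr12:55398675-55398824 (plus) for Psma6, chr14:54617996-54618145 (minus) for Psmb5 and chr11:70525207-70525356 (plus) for Psmb6.
Psma4: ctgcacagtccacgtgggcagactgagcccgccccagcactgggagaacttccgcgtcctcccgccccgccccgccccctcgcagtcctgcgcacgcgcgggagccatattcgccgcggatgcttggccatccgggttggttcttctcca
Psma6, upstream start: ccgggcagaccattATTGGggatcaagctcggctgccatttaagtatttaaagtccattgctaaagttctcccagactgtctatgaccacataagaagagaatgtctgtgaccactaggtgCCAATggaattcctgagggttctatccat
Psma6, downstream start: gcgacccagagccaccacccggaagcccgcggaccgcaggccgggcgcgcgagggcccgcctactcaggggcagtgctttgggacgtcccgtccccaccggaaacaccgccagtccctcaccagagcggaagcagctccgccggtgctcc
Psmb5: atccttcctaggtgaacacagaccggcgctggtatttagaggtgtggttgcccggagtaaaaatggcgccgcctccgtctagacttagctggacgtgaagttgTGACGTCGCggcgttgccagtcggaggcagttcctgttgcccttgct
Psmb6: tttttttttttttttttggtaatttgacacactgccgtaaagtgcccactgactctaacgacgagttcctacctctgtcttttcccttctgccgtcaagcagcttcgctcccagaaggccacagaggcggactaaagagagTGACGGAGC
Over windows of 300 bases (250 before to 50 after each start), a promoter was found for 32 of the 40 subunits and chaperones, 34 windows in all. Psmb2 and Psmg2, which fell, had no window and were not searched. Of these 34, 5 held TGACNNNGC (14.7%, against 12.4% of all 32851 promoters) and 12 held CCAAT (35.3%, against 37.4%). Matches were counted on both strands, and no member's window held both motifs. CCAAT was in 7 of 13 windows of core genes (53.8%) and 4 of 15 of cap genes (26.7%). The TGACNNNGC matches lay in Psmb5, Psmb6, Psmc6, Psmd12 and Psmd9, and of these genes Psmb5 fell while the other 4 did not pass. A match is a run of letters in the window and was not measured as a binding site.

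The alpha rings of the 20S core form the gate of the particle and bind its caps and activators. Of 8 alpha genes 7 were above the filter, 1 rose (Psma6) and 1 fell (Psma4), with a median near 0 (0.0081). This is 28.6% of the 7, against 24.6% of all genes.

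Psma6 (cluster 10395816) read 9.99, 9.83, 10.09 and 10.09 in WT replicates 1 to 4 and 10.31, 10.30, 10.30 and 10.31 in KO replicates 1 to 4. The KO hearts were all above the WT hearts and lay within a spread (SD 0.01) far below that of WT (SD 0.12). The gene rose by 0.31 (SE 0.06, adjusted p = 0.005, limma), or 23.6% of the WT level. Psma6 passed in 17 of 17 alternative analyses.

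Psma4 encodes an alpha subunit whose tail takes part in closing the gate. It read 8.45, 8.57, 8.44 and 8.34 in WT hearts and 8.28, 8.27, 8.16 and 8.01 in KO hearts, so that every KO heart was below every WT heart. The gene fell by 0.27 (SE 0.07, adjusted p = 0.0222, limma), a change of -17%, and KO replicate 4 was lowest. Leaving out WT replicate 2 (0.0526) or KO replicate 3 (0.0533) took the adjusted p past the threshold.

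Psma3, another alpha subunit, read 9.57, 9.57, 9.60 and 9.57 in WT and 9.74, 9.72, 9.84 and 9.61 in KO hearts. The groups did not overlap, but the difference of 0.15 (95% interval 0.02 to 0.27, adjusted p = 0.079, limma) did not pass. It passed in 4 of 17 alternatives. Psma3 has 3 clusters, and the dimmer ones differed by 0.10 and 0.22. Psma7 differed by -0.14 (-0.28 to 0.01, adjusted p = 0.168, limma), with values of 8.45 to 8.64 in WT and 8.27 to 8.50 in KO hearts, which overlapped. Psma2 (0.11), Psma5 (-0.06) and Psma1 (0.01) did not pass either. Psma8, a subunit known from the testis, was under the filter (4.11 in WT and 4.07 in KO) and was not tested.

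The beta rings hold the catalytic sites, of which Psmb5 carries the chymotrypsin-like, Psmb6 the caspase-like and Psmb7 the trypsin-like activity. Of 8 beta genes, all above the filter, 2 fell (Psmb2 and Psmb5) and 0 rose, with a median of -0.07. This is 25% of the 8, against 24.6% of all genes, and 6 of the 8 differences were below 0.

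Psmb5 (cluster 10419810) read 11.44, 11.48, 11.50 and 11.44 in WT hearts and 11.36, 11.32, 11.28 and 11.13 in KO hearts. All KO hearts were below all WT hearts, and KO replicate 4 was again the lowest. The gene changed by -0.19 (SE 0.06, adjusted p = 0.0369, limma), or -12.4%. It passed in 8 of 17 alternatives (adjusted p from 0.00854 to 0.0862) and only without KO replicate 1 among the analyses that left out an array. The adjusted p was 0.0533 to 0.0862 without any of the other 7 arrays, 0.055 with a replicate block and 0.0534 with no filter on low levels.

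Psmb2 encodes a beta subunit without a catalytic site. It read 11.31, 11.30, 11.33 and 11.36 in WT and 11.20, 11.18, 11.15 and 11.20 in KO hearts. No KO heart reached the lowest WT heart, although the difference was small at -0.14 (SE 0.04, adjusted p = 0.0351, limma), or -9.52%. Psmb2 passed in 9 of 17 alternatives (adjusted p from 0.00345 to 0.0911). It was lost with a replicate block (0.0776), with no filter (0.0584), and without WT replicate 1, 3 or 4 or KO replicate 1, 2 or 3 (0.0628 to 0.0911).

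The other catalytic genes did not pass. Psmb6 differed by -0.03 (95% interval -0.15 to 0.09) and Psmb7 by 0.07 (-0.05 to 0.19), so that neither interval reached the fitted fall of Psmb5. Whether Psmb5 differed from them was not tested.

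Psmb3, a structural subunit, read 11.77, 11.78, 11.81 and 11.78 in WT and 11.68, 11.69, 11.71 and 11.62 in KO hearts, without overlap, and differed by -0.11 (adjusted p = 0.106, limma). Its second cluster differed by -0.13, and the gene passed in 1 of 17 alternatives. Psmb4, also structural, read 10.49 to 10.74 in WT and 10.43 to 10.51 in KO hearts and differed by -0.13 (adjusted p = 0.131, limma). It passed in 1 of 17 alternatives. Psmb1 (-0.04) and Psmb11 (0.07), the latter a subunit of the thymus, did not pass. Psmb11 was dim, at 4.94 in WT and 5.01 in KO hearts.

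**Figure D2:**
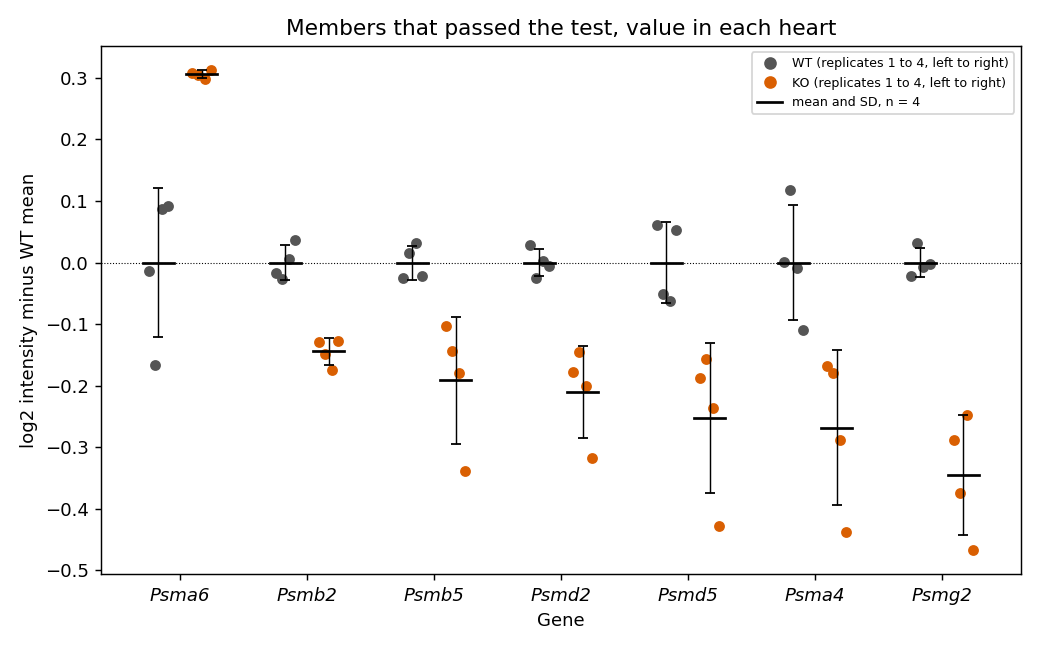
Log2 intensity of each member that passed the test, minus its WT mean (y axis), in each heart, with the group mean and SD (n = 4). Psma6 is the member above the WT hearts, and KO replicate 4 (rightmost orange point) is the lowest heart for Psmb5, Psmd2, Psmd5, Psma4 and Psmg2.

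The 19S cap recognises ubiquitin, removes it and unfolds the substrate. Of its 17 genes, all above the filter, 1 fell (Psmd2) and 0 rose, or 5.88% against 24.6% of all genes. The count was 3 (17.6%) with the filter at the 50th percentile (36.9% of all genes), with an intensity trend and robust variances (26.6%) and with array weights (30.3%), and 2 (11.8%) with median centring (24.9%), with log2(value + 16) (26.1%) and without WT replicate 3 (21.9%). Their median was -0.007, and 0.0115 with quantile normalisation and 0.0127 with array weights. Their median size regardless of sign was 0.03, against 0.11 in the 20S core and over all genes.

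The ATPases Psmc1 to Psmc6 form the ring that unfolds substrates and opens the gate of the core. None of these 6 passed in limma, 0 had an unadjusted p under 0.05, and 0 passed with an intensity trend and robust variances. The differences ran from -0.04 to 0.05. Psmc1 had the smallest p and read 9.01, 8.83, 9.07 and 8.99 in WT and 9.07, 8.96, 9.04 and 9.04 in KO hearts (0.05, adjusted p = 0.587, limma). Psmc5 read 7.25 to 7.29 in WT and 7.16 to 7.31 in KO hearts (-0.04, adjusted p = 0.667, limma). The groups overlapped for all 6, and their 95% intervals together ran from 11.2% below to 13.8% above the WT level. Psmc2 (-0.03), Psmc3 (-0.004), Psmc4 (-0.01) and Psmc6 (0.02) completed the ring.

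Among the 11 non-ATPase subunits, only Psmd2 passed. With Psmd1 it is a large scaffold of the base of the cap, and it docks shuttle receptors and the deubiquitinase USP14. Psmd2 (cluster 10362392) read 10.40, 10.35, 10.37 and 10.37 in WT and 10.19, 10.23, 10.17 and 10.05 in KO hearts. The groups did not overlap, and the gene changed by -0.21 (SE 0.05, adjusted p = 0.0129, limma), or -13.5%. Its second cluster differed by -0.20, and the call held in 17 of 17 alternatives.

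Psmd1 read 10.61, 10.57, 10.70 and 10.64 in WT and 10.49, 10.57, 10.44 and 10.46 in KO hearts. The difference of -0.14 (95% interval -0.26 to -0.03, adjusted p = 0.0754, limma) did not pass, and 1 KO heart lay within the WT range. It passed in 3 of 17 alternatives. Psmd4, the ubiquitin receptor between base and lid, read 7.74, 7.72, 7.66 and 7.81 in WT and 7.61, 7.57, 7.61 and 7.54 in KO hearts. Its groups did not overlap, and the difference of -0.15 fell just outside the threshold (adjusted p = 0.0511, limma). Psmd4 passed in 6 of 17 alternatives.

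No gene of the lid, which carries the deubiquitinase PSMD14, passed. Psmd14 differed by -0.03 (-0.20 to 0.14). Its KO hearts read 9.26, 9.24, 9.32 and 8.95 against 9.21 to 9.24 in WT, so that KO replicate 4 alone lay below the WT hearts. Without that array the difference was 0.05. Its partner Psmd7 differed by -0.04, and the lid subunits Psmd3 (-0.01), Psmd6 (0.01), Psmd8 (0.02), Psmd11 (0.05) and Psmd12 (0.01) did not pass. The groups of Psmd11 did not overlap, at 8.50 to 8.53 in WT and 8.54 to 8.61 in KO hearts. Psmd13, at 8.18 to 8.27 in WT and 8.30 to 8.39 in KO hearts, did not overlap and did not pass (0.10, adjusted p = 0.138, limma).

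Core and cap were set side by side by averaging the members above the filter in each heart, relative to WT. The mean of the core was -0.01 to 0.03 in WT and -0.06 to -0.0064 in KO hearts. The mean of the cap was -0.01 to 0.0145 in WT and -0.0546 to -0.0075 in KO hearts. Both means overlapped between groups, and KO replicate 4 was the lowest heart in each. The mean over all 38 subunits and chaperones did not overlap, at -0.0072 to 0.0085 in WT and -0.063 to -0.0219 in KO hearts, again lowest in KO replicate 4. This mean was not recomputed under the alternatives. Median centring moved the median difference over all genes from -0.0062 to -0.0288. Core minus cap was -0.02 to 0.03 in WT and -0.0089 to 0.0062 in KO hearts. Its KO mean was -0.0037 against a WT mean set to 0, and this difference was not tested. The SD of single arrays within groups was 0.0164, which is not the error of the difference between means. The median difference of the members was -0.0352 in the core and -0.007 in the cap. The core held 4 calls of 15 (26.7%, against 24.6% of all genes) and the cap 1 of 17 (5.88%), and the difference between these counts was not tested. The counts were 1 and 1 without KO replicate 3, and 2 and 2 without WT replicate 3. Without WT replicate 1 or 4 or KO replicate 2, with no filter or with a replicate block they were 2 in the core and 1 in the cap. With an intensity trend and robust variances they were 6 (40%) and 3 (17.6%), against 26.6% of all genes. With the filter at the 50th percentile they were 5 (35.7%) and 3 (17.6%), against 36.9% of all genes. With array weights they were 5 (33.3%) and 3 (17.6%), against 30.3% of all genes. Within the core, the mean of the alpha rings was 0.01 in KO hearts, from -0.04 to 0.04, and that of the beta rings was -0.06, from -0.08 to -0.04.

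**Figure D3:**
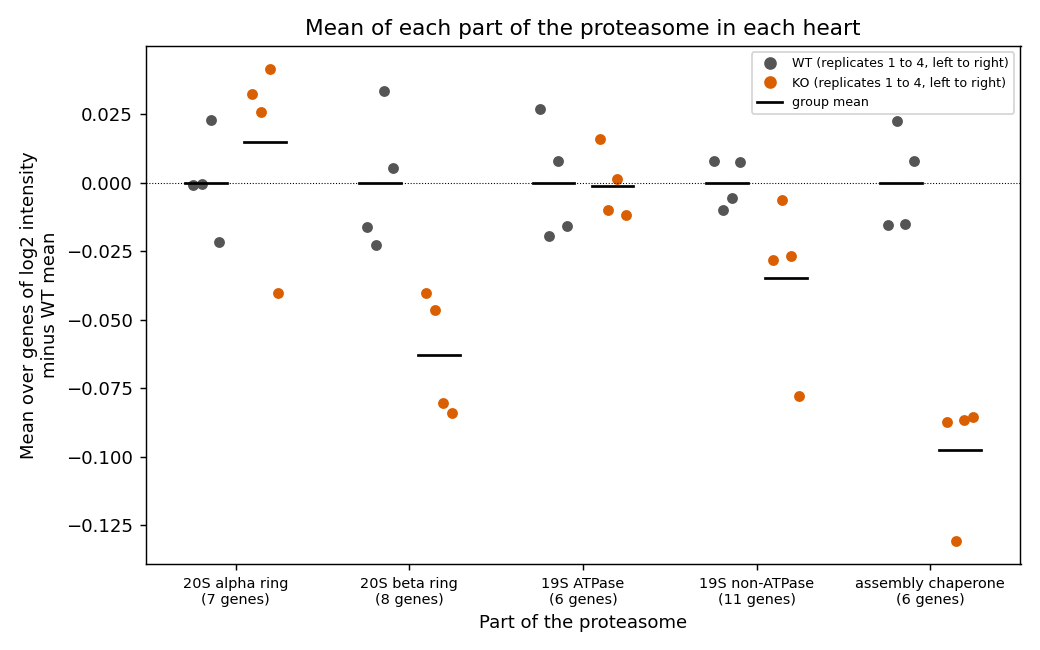
Mean over the genes of each part of the proteasome of log2 intensity minus the WT mean (y axis), in each heart, with the group mean as a line. KO and WT hearts overlap for the alpha rings and both groups of cap subunits, and do not overlap for the beta rings and the assembly chaperones, whose KO hearts lie at -0.13 to -0.09.

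The assembly chaperones held the lowest difference of all members. Of 7 genes 6 were above the filter, and 2 fell (Psmg2 and Psmd5) while 0 rose, or 33.3% against 24.6% of all genes. The count was 1 without WT replicate 1 or 4 and 3 without KO replicate 4. Their median was -0.14.

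Psmg2 pairs with Psmg1 to build the alpha ring. Psmg2 (cluster 10456414) read 8.34, 8.40, 8.36 and 8.36 in WT and 8.08, 7.99, 8.12 and 7.90 in KO hearts. All KO hearts were below the WT hearts, and the gene changed by -0.34 (SE 0.06, adjusted p = 0.00146, limma), or -21.3%. It passed in 17 of 17 alternatives. Its partner Psmg1 read 7.42, 7.39, 7.47 and 7.46 in WT and 7.15, 7.21, 7.30 and 7.41 in KO hearts, with KO replicate 4 inside the WT range. Psmg1 differed by -0.17 (95% interval -0.30 to -0.03, adjusted p = 0.0801, limma). It passed in 3 of 17 alternatives: without KO replicate 4 (-0.21, adjusted p = 0.0192), with median centring (0.0485) and with array weights (0.0086).

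Psmd5, Psmd9 and Psmd10 help to assemble the ATPase ring. Psmd5 read 7.30, 7.19, 7.18 and 7.29 in WT and 7.05, 7.08, 7.0 and 6.81 in KO hearts. The groups did not overlap, and the gene changed by -0.25 (SE 0.07, adjusted p = 0.0204, limma), or -16.1%. Its adjusted p was 0.0574 without WT replicate 1 and 0.0536 without WT replicate 4. Psmd9 (-0.12) and Psmd10 (0.11, groups without overlap, adjusted p = 0.135, limma) did not pass.

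Psmg3 and Psmg4 form the other chaperone pair of the alpha ring. Psmg4 read 6.98, 6.96, 6.73 and 6.83 in WT and 6.98, 7.02, 7.05 and 7.19 in KO hearts, and differed by 0.18 (0.03 to 0.34, adjusted p = 0.0882, limma). Psmg3 was under the filter, at 4.41 in WT and 4.53 in KO hearts, and was not tested. Psmc3ip, no part of the proteasome, read 5.02 to 5.29 in WT and 5.17 to 5.45 in KO hearts (0.11, adjusted p = 0.347, limma).

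Genes of the ubiquitin-proteasome system outside the symbol rule were taken from 10 lists. Of 91 measured genes 33 passed, or 36.3% against 24.6% of all genes, with 15 higher and 18 lower. Without KO replicate 1 the count was 21 (23.1%, against 19.2% of all genes). Psme1, which with Psme2 forms an activator that opens the core without ubiquitin, read 9.64, 9.75, 9.67 and 9.61 in WT and 8.91, 8.99, 8.87 and 8.73 in KO hearts. It changed by -0.79 (SE 0.06, adjusted p = 1.51e-05, limma), to 57.7% of the WT level, and passed in 17 of 17 alternatives. Its partner Psme2 read 8.50 to 8.61 in WT and 8.41 to 8.69 in KO hearts and differed by -0.06 (95% interval -0.21 to 0.09, adjusted p = 0.579, limma). In the list of activators and inhibitor, 2 of 5 fell and 1 rose (60% called, against 24.6% of all genes). Psme4, the gene of another core activator, rose by 0.20 (adjusted p = 0.00829, limma). Psmf1, the gene of an inhibitor of the core in vitro, changed by -0.22 (adjusted p = 0.025, limma), a call lost without WT replicate 2 or 3 or KO replicate 3 or 4 (0.0501 to 0.0592).

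The immunoproteasome genes, which encode exchangeable catalytic subunits, held 2 of 3 that rose (66.7%, against 10.8% of all genes higher) and 0 that fell. Psmb8, which takes the place of Psmb5, rose by 0.29 (adjusted p = 0.00917, limma) and Psmb9, in the place of Psmb6, by 0.26 (adjusted p = 0.0248, limma). Psmb10, in the place of Psmb7, differed by 0.06. Macrophages express these genes, and their markers rose in the same hearts (15 of 15, KO mean 1.07 to 1.34). The part of macrophages in these rises was not tested. Psmb9 did not pass without WT replicate 4 or KO replicate 1 or 2 (0.0654 to 0.0775).

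Further factors of the particle were taken from a list of 9, of which 7 were measured, with 1 rise and 2 falls (42.9%, against 24.6% of all genes). Pomp, the maturation factor of the beta rings, rose by 0.19 (adjusted p = 0.0246, limma), with KO replicate 4 lowest among KO hearts. Usp14, the deubiquitinase that docks on PSMD2, changed by -0.17 (adjusted p = 0.0228, limma), and Ube3c, the gene of a ligase of the particle, by -0.20 (adjusted p = 0.0237, limma). These calls did not hold without some single hearts: WT replicate 3 or 4 or KO replicate 1, 2 or 3 for Pomp (0.0514 to 0.0753), WT replicate 1 or 3 or KO replicate 1 or 2 for Usp14 (0.0523 to 0.0635), and WT replicate 1 or 2 or KO replicate 1 or 4 for Ube3c (0.0502 to 0.0765). Pomp also did not pass with median centring (0.064) and Usp14 with a replicate block (0.0508). Among the shuttle receptors, which carry ubiquitinated proteins to the cap, Ubqln4 fell (-0.31, adjusted p = 0.00395, limma), and the other 3 measured did not pass (25% called, against 24.6% of all genes).

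The NFE2L1 pathway was examined because it induces subunit genes together. Of 10 genes measured, 2 rose and 0 fell, or 20% against 24.6% of all genes. Passing or not, 7 differences were above 0 and 3 below. The list mean relative to WT was -0.05 to 0.04 in WT and 0.06 to 0.13 in KO hearts, without overlap, and was not tested. Nfe2l1 itself read 10.18 to 10.31 in WT and 10.30 to 10.40 in KO hearts and differed by 0.085 (95% interval -0.02 to 0.19, adjusted p = 0.255, limma). Nfe2l2, the related factor of the antioxidant response, rose by 0.33 (adjusted p = 0.0056, limma). Maff, a small MAF partner of both, rose by 0.31 (adjusted p = 0.0478, limma) with overlapping groups. Maff passed in 7 of 16 alternatives and not without WT replicate 1, 2 or 4 or KO replicate 1, 2 or 3 (0.055 to 0.12). These are transcript levels, and NFE2L1 is controlled largely by processing of the protein, which arrays do not read.

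Ubiquitin ligases of muscle decide which proteins reach the proteasome, and 7 of 15 passed (46.7%, against 24.6% of all genes), 4 higher and 3 lower. Trim55, a ligase gene of the sarcomere, read 9.11, 9.12, 9.03 and 9.14 in WT and 7.95, 8.11, 8.08 and 7.76 in KO hearts. It changed by -1.12 (SE 0.08, adjusted p = 6.18e-06, limma), to 45.9% of the WT level. Fbxo21 fell by 0.41 and Asb2 by 0.39 on the log2 scale, and Cblb rose by 0.46. Among the genes known as markers of muscle wasting, Fbxo32 rose by 0.51 (adjusted p = 0.00553, limma), and Trim63 read 9.05 to 9.40 in WT and 8.89 to 9.64 in KO hearts and did not pass (0.09). Fbxo32 and Trim63 were singled out after their values were seen.

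**Figure D4:**
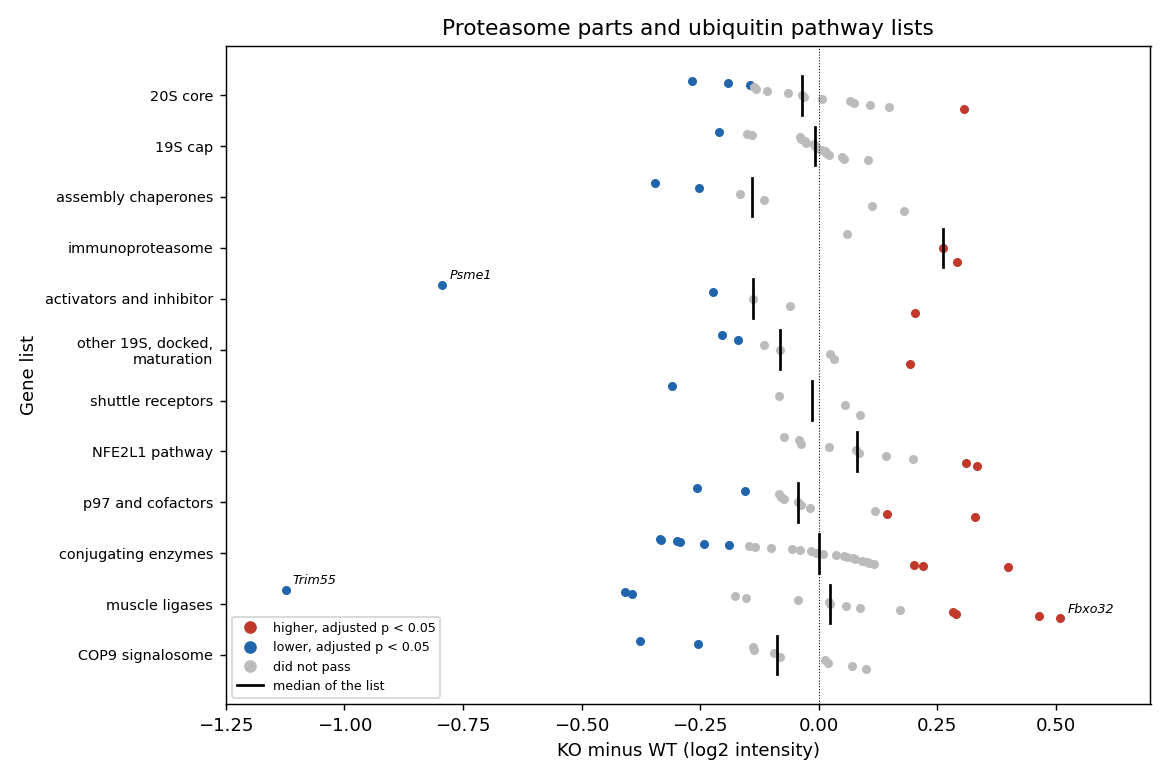
KO minus WT difference (x axis, log2 intensity) of each gene above the filter in the parts of the proteasome and in lists of related genes, with the median of each list as a line. The subunits and chaperones lie between -0.34 and 0.31, while Psme1 reaches -0.79 and Trim55 -1.12.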

How the data were processed

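RNA of 8 hearts (4 WT, 4 KO) was measured on 1 array each. The authors deposited 1 intensity per transcript cluster and array, on a linear scale. Partek and RMA are named, per the submitters' processing notes. The sources used here give no version, probe annotation or genome build. Scanner files, and so detection calls and scan batches, were not analysed here.

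Intensities were taken to log2. Of 27541 clusters, 21631 had 1 symbol in the platform table, 1317 several and 4593 none. The Entrez ID of 21544 was in RefSeq (GRCm38.p6), which updated 0 symbols. The brightest cluster was kept per gene. Those whose mean level was below the 25th percentile (intensity 22.6) were dropped, leaving 14950. limma 3.58.1 (R 4.3.3, lmFit, eBayes, two-sided, 6 residual degrees of freedom) compared KO with WT without covariates. It was run on simulated data with far fewer changed genes than were called here. That run does not measure the error rates in these data. Figures used matplotlib 3.10.9. Array number limits precision.

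The rule named Hdac3, every member, and up to 4 genes of smallest p per related list. Members, lists and tests were chosen with earlier results of these data known. Same-numbered arrays shared little deviation (correlations of -0.0384 to 0.0757). Such correlations cannot exclude a weak pairing of hearts by number, and a replicate block was among the alternatives. Lists were described by counts and medians. The 17 alternatives were median centring, quantile normalisation, no filter, a filter at the 50th percentile, an intensity trend with robust variances, array weights, the mean of a gene's clusters, log2(value + 16), a replicate block, and each of the 8 arrays left out.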

Additional observations from a re-analysis of the deposited data

Results flagged for a closer look

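Single hearts stood apart from the other 3 of their group in 11 of 132 groups of 4 examined over 66 genes (Dixon's test at the 95% level, which chance passes in about 1 in 20 groups). Among the members, Psma2 was 7.88 in WT replicate 2 against 8.09 to 8.13 in the other WT hearts. Psma3 was 9.60 in WT replicate 3 against 9.57. Psmc5 was 7.29 in WT replicate 1 against 7.25. Psmb1 was 8.94 in KO replicate 3 against 8.98 to 8.99, and Psmd3 was 8.20 in the same heart against 8.32 to 8.34. None of these 5 genes passed the test between groups. Among related genes, Psmb9 was 7.22 in WT replicate 4 against 7.38 to 7.40. Pomp was 8.29 in KO replicate 4 against 8.45 to 8.47, which was still above every WT heart. Nfe2l2 was 9.86 in WT replicate 2 against 10.11 to 10.15, and 10.46 in KO replicate 3 against 10.38. Cops7b was 7.57 in KO replicate 3 against 7.36 to 7.39. Hdac3, the targeted gene, was 8.50 in KO replicate 4 against 8.59 in the other KO hearts.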

How the results depend on the processing

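The count over all genes stayed within 1.5 times 3683, from 2871 to 4529. Psma6, Psmd2 and Psmg2 passed in 17 of 17 alternatives. In the core, 4 calls became 2 with no filter on low levels and 2 with the replicate number as a block (replicate block). They ran from 1 to 4 as single arrays were left out, with 2 without WT replicate 1, 3 or 4 or KO replicate 2, and 1 without KO replicate 3. In the cap, 1 call became 2 with median centring and with log2(value + 16), and 3 with the filter at the 50th percentile, an intensity trend and robust variances, or array weights. Leaving out single arrays gave 1 to 2 calls in the cap (2 without WT replicate 3), 1 to 3 among chaperones (1 without WT replicate 1 or 4) and 21 to 30 in the related lists, against 33 (21 without KO replicate 1). The 20S core against 19S cap difference lay between -0.0133 (quantile normalisation) and 0.0061 (without WT replicate 3). The replicate block gave 3382 calls over all genes, 1 in the cap, 2 among chaperones and 29 in the related lists. The causes were not tested.

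Subunits near 0 that did not pass took the other sign under some settings. With median centring these were Psma1 (-0.0145), Psmc6 (-0.0064), Psmd12 (-0.01), Psmd6 (-0.0171) and Psmd8 (-0.0016). With quantile normalisation they were Psmc3 (0.0173), Psmc4 (0.0014) and Psmd3 (0.0215), and with array weights Psmc3 (0.0026), Psmc4 (0.0291), Psmd14 (0.0173) and Psmd3 (0.016). Leaving out single arrays, Psma1 ran from -0.0163 to 0.0253, Psmc2 from -0.071 to 0.0162, Psmc3 from -0.0273 to 0.0149, Psmc4 from -0.0274 to 0.0186, Psmc6 from -0.0064 to 0.0577, Psmd3 from -0.022 to 0.0273, Psmd6 from -0.0187 to 0.0315, Psmd8 from -0.0072 to 0.0529 and Psmd14 from -0.0721 to 0.0525. No member that passed took the other sign under any of its alternatives.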

Other observations

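Other parts of the ubiquitin system, from lists that hold no member, also held calls in both directions. Of 26 ubiquitin-conjugating enzymes 3 rose and 6 fell (34.6%, against 24.6% of all genes), with a median of 0.0015. Ube2c, an enzyme of mitosis, rose by 0.40 from a dim level (5.66 ± 0.15 in WT, SD, n = 4). Ube2s, which extends ubiquitin chains in mitosis, changed by -0.33, Ube2o by -0.29 and Ube2a by -0.24. Of p97, the segregase that extracts ubiquitinated proteins, and its cofactors, 2 of 11 rose and 2 fell (36.4%, against 24.6% of all genes). The p97 gene Vcp differed by -0.07, Ubxn1 rose by 0.33 and Ufd1, a cofactor of p97, changed by -0.26. Nploc4, the partner of Ufd1, rose by 0.14 and Plaa changed by -0.15, and these passed in 7 and 9 of 17 alternatives. Nploc4 passed in only 1 analysis that left out a heart, that without KO replicate 4, against 0.0804 to 0.125 in the other 7, and Plaa did not pass without WT replicate 1, 2 or 3 or KO replicate 1, 2 or 4 (0.0772 to 0.111). Ufd1 did not pass without KO replicate 1 (0.0502) or KO replicate 3 (0.0577).

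The COP9 signalosome is a relative of the lid of the cap that removes NEDD8 from cullin ligases. Of its 10 genes 2 fell and 0 rose (20%, against 24.6% of all genes), with a median of -0.09. Both falls were in the exchangeable subunit: Cops7a changed by -0.38 (adjusted p = 0.000628, limma) and Cops7b by -0.25 (adjusted p = 0.0173, limma), the latter lost without KO replicate 1 (0.0525) or KO replicate 2 (0.0526). Uba6, the measured gene of the list of ubiquitin and activating enzymes, differed by -0.08, and the other genes of that list were not analysed here.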
